A study of Mus musculus with 6 samples.

Results

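The genes described here are those of the switch that lets a cell pass from growth into DNA replication: the D cyclins Ccnd1, Ccnd2 and Ccnd3, their kinases Cdk4 and Cdk6, and the CDK inhibitors Cdkn1a, Cdkn1b, Cdkn1c, Cdkn2b and Cdkn2c. They were chosen by name, with earlier results of these data known. All 10 were among the 20239 named genes on the arrays, with 1 probe set each. RNA had been taken from sciatic nerves of mice aged 25 days and measured on 1-colour Affymetrix whole-transcript arrays, 1 array per biological replicate. The 3 mutant samples came from DhhCre::Sip1 flox/flox mice. These carried floxed alleles of Sip1, the gene now called Zeb2, and a Cre recombinase driven by Desert hedgehog sequences, which is active in the Schwann cell lineage. The 3 control samples came from Sip1 flox/flox mice, which had no Cre, so both groups carried the floxed alleles. Deletion was thus aimed at Schwann cells, and whole nerve also holds fibroblasts, perineurial cells, macrophages and endothelial cells. The comparison asks which of these transcripts differed between mutant and control nerves.

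A D cyclin binds CDK4 or CDK6, and the complex phosphorylates the retinoblastoma protein, which frees E2F transcription factors to switch on genes of DNA replication. Inhibitors of the INK4 family bind the kinases themselves, and those of the CIP/KIP family bind cyclin-kinase complexes, above all those with CDK2. Schwann cells of the developing nerve divide until they take up a relation with an axon, and they leave the cell cycle as they begin to myelinate. Cyclin D1 is known as a gene that Schwann cells need to divide after nerve injury rather than during development.

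The arrays had medians between 7.99 and 8.08 on the log2 scale, and their number limits the precision. Zeb2 was lower in the mutants, with mutants 1 to 3 at 10.96, 10.66 and 11.01 and controls 1 to 3 at 11.67, 11.57 and 12.02. Both groups held both sexes, but not in balance. From Xist and Y-linked genes, mutants 1 and 2 and control 3 were read as male, and mutant 3 and controls 1 and 2 as female. The nerves also carried unequal amounts of muscle and fat. Averaged over 12 genes of skeletal muscle, the log2 value reached 12.42 in mutant 2 and 12.40 in control 2, which stood apart as muscle-rich. This muscle level was 9.85 in mutant 3 and 10.36 in control 3, and lowest in mutant 1 (7.60) and control 1 (7.57). The adipocyte level, the average over 7 fat cell markers, ran from 10.71 to 11.45 among the mutants and was 12.27, 11.44 and 10.17 for controls 1, 2 and 3. Sox10, a defining factor of Schwann cells, was well above the array medians in both groups, at 10.34 ± 0.27 in the mutants and 11.08 ± 0.32 in the controls (mean ± SD, n = 3 each). Of the Schwann cell markers measured, 2 of 6 were lower in the mutants and none higher, S100b by 1.51 and the neuregulin receptor Erbb3 by 1.14. By the same test, given below, 3.89% of all genes were lower and 5.74% higher. In whole nerve, fewer cells of a type and less RNA per cell cannot be told apart.

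The promoters of 7 of the 10 genes were matched in the RefSeq table (build GRCm38.p6), in 10 windows of the 250 bases before a transcription start. They were searched on both strands for CACCT, the short sequence to which the zinc finger clusters of ZEB proteins bind, for the longer form CACCTG, which holds it, and for CACGTG, the E-box to which MYC proteins bind. Among the genes that changed, Cdkn1a, Cdkn1b and Cdk4 had windows with such letters, and 1 window of each is shown because its gene went down (Cdkn1a and Cdkn1b) or up (Cdk4) in the mutants. Capitals mark CACCT or its reverse complement in the first pair and CACGTG in the third.
Cdkn1a, chr17:29093519-29093768, plus strand: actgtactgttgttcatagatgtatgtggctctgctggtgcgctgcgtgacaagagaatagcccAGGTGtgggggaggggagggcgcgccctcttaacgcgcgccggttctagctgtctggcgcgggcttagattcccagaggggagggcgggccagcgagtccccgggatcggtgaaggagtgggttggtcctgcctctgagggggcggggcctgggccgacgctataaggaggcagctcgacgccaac
Cdkn1b, chr6:134920151-134920400, plus strand: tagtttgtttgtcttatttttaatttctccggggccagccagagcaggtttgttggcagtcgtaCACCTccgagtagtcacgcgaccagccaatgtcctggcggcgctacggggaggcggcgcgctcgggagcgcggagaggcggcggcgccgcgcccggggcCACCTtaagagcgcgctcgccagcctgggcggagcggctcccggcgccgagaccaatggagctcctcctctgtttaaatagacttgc
Cdk4, chr10:127063285-127063534, plus strand: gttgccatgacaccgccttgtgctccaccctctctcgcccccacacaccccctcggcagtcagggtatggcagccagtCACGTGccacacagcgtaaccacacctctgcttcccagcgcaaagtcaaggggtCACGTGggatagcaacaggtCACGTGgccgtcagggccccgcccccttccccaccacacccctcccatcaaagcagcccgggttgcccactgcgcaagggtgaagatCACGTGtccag

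CACCT was common: 46.0% of all 32851 windows of this length held it at least 1 time and 13.8% at least 2 times. The Cdkn1b window held it 2 times, starting 186 and 87 bases before the transcription start. The Cdkn1a window held it 1 time, 186 bases before the start and as part of CACCTG, which 17.2% of all windows held. A second Cdkn1a window, at an earlier start, held CACCT 1 time, and so did the Cdk4 window. The Cdk4 window held CACGTG 4 times, starting 172, 118, 98 and 11 bases before the start, a number reached by 7 of the 32851 windows (0.0213%). The Cdk6 window held CACGTG 1 time, where 6.02% of all windows held it at least 1 time, and the windows of Ccnd3, Cdkn2b and Cdkn2c held none of these letters. A match is a run of letters and does not show that a factor binds there.

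All 3 D cyclins were higher in the mutant nerves, Ccnd1 by 2.30-fold, Ccnd2 by 2.39-fold and Ccnd3 by 1.82-fold. Among the kinases Cdk4 was 1.35-fold higher, while Cdk6 stood at a log2 difference of −0.12. The CIP/KIP inhibitors Cdkn1a and Cdkn1b were lower, by 3.22-fold and 1.95-fold, and the INK4 inhibitor Cdkn2b was 1.83-fold higher. In all, 5 of the 10 genes rose, 2 fell and 3 (Cdk6, Cdkn1c and Cdkn2c) did not pass the test, which was limma's, mutant minus control, with a Benjamini-Hochberg adjusted p under 0.05 over all 20239 genes. Over all genes 9.62% passed, 5.74% as higher and 3.89% as lower. The mutant and control values of 8 of the 10 genes did not overlap, as was the case for 28.1% of all genes. The median log2 difference was 0.41 for the 10 genes and −0.02 for all genes.

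**Figure D1:**
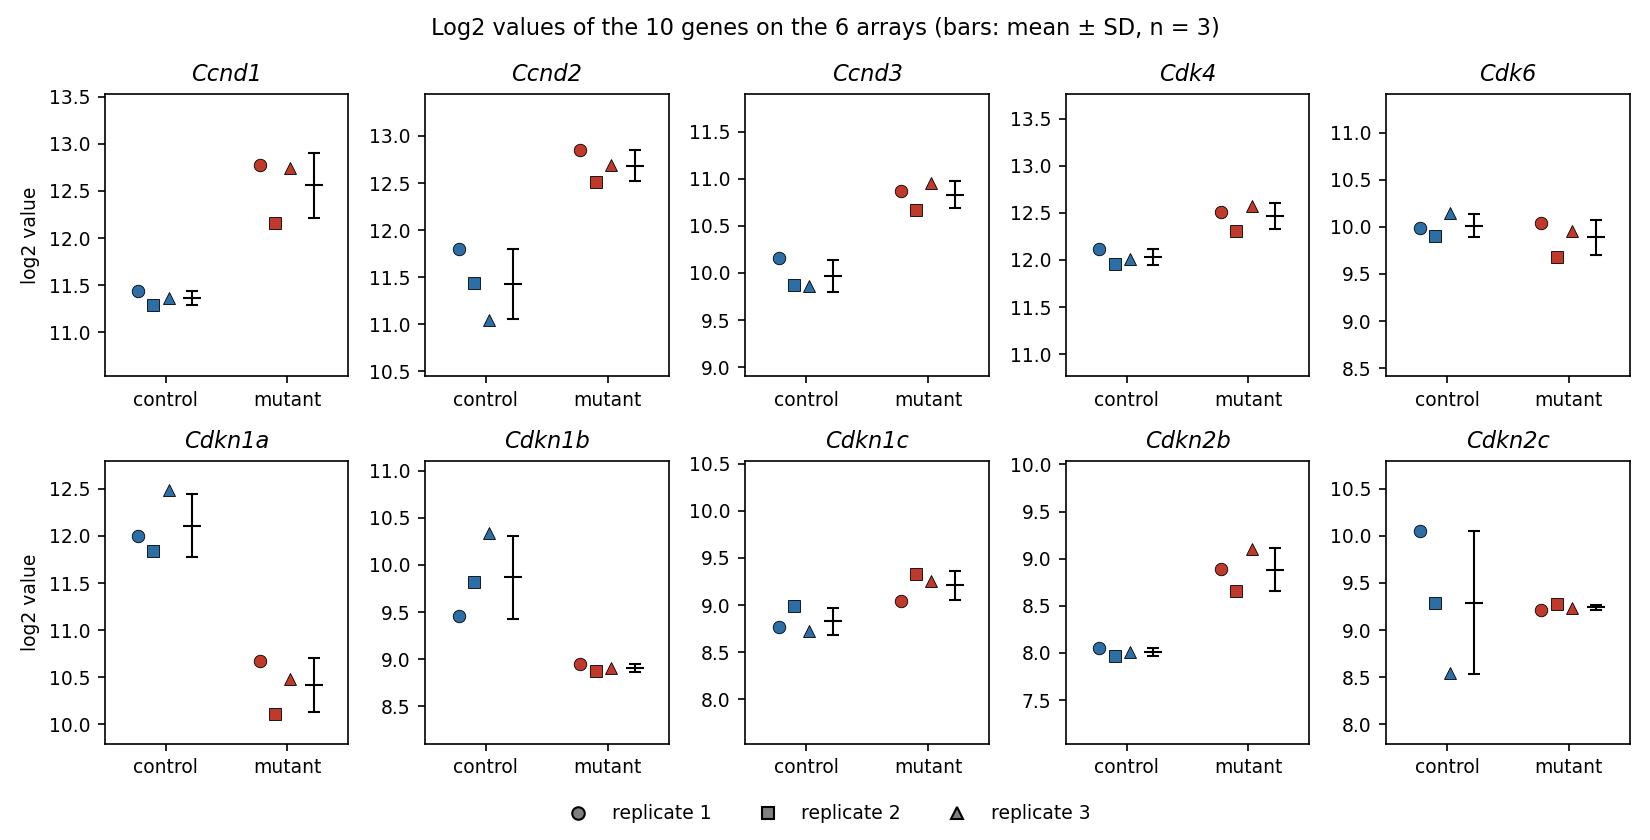
Log2 value of each of the 10 genes (vertical axes, each spanning the same number of log2 units) on the 3 control arrays (blue) and 3 mutant arrays (red), with the marker shape giving the replicate number and bars the mean ± SD. The groups do not overlap for 8 genes, and they overlap for Cdk6 and Cdkn2c.

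Ccnd1, which encodes cyclin D1, stood at 12.78, 12.16 and 12.74 in mutants 1 to 3 and at 11.44, 11.29 and 11.36 in controls 1 to 3. The lowest mutant, the muscle-rich mutant 2, still lay 0.73 above the highest control. The log2 difference was 1.20 (SE 0.17, limma adjusted p = 0.00690), with a 95% confidence interval of 0.79 to 1.61. The controls differed little from each other (SD 0.075, n = 3), and the spread among the mutants (SD 0.35, n = 3) came mainly from mutant 2. Without mutant 2 the difference was 1.40.

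Ccnd2, which encodes cyclin D2, stood at 12.85, 12.52 and 12.69 in the mutants and at 11.80, 11.43 and 11.05 in the controls. Here the controls were the more variable group (SD 0.38 against 0.17, n = 3 each), with control 1 highest and control 3 lowest, and no mutant reached down to a control. Mutants exceeded controls by 1.26 (SE 0.19, limma adjusted p = 0.00933), with a 95% confidence interval of 0.80 to 1.72. Control 1 had the highest adipocyte level and control 3 the lowest, and with the adipocyte level as a covariate the difference was 1.32 (limma adjusted p = 0.00297). Among the controls, the mean values of the macrophage, endothelial and fibroblast markers were also highest in control 1 and lowest in control 3. So was the mean of 20 replication and mitosis genes, at 7.86, 7.62 and 7.42 for controls 1 to 3. The Schwann cell and myelin marker means were lowest in control 1 and highest in control 3. Which of these levels goes with Ccnd2 was not tested. Without both muscle-rich nerves the difference was 1.35 and the adjusted p in limma 0.0544.

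Ccnd3, which encodes cyclin D3, stood at 10.87, 10.67 and 10.95 in the mutants and at 10.16, 9.88 and 9.86 in the controls. All mutants lay above all controls, by at least 0.51. Their mean difference was 0.87 (SE 0.12, limma adjusted p = 0.00641), with a 95% confidence interval of 0.58 to 1.15. Mutant 2 was the lowest of the mutants for each of the 3 D cyclins.

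Whether the D cyclins responded to different degrees was tested on the difference between a pair of genes on each array. This was done for 8 pairs within the 4 roles, with exact two-sided permutation tests over the 6 arrays, for which 0.1 is the smallest p possible. The response of Ccnd1 differed from that of Ccnd2 by −0.06 (exact p = 1). It exceeded that of Ccnd3 by 0.33 (exact p = 0.2), and the response of Ccnd2 exceeded that of Ccnd3 by 0.39 (exact p = 0.1, adjusted over the 8 pairs 0.16). No pair of D cyclins was separated at 0.05, which this permutation test of 3 against 3 arrays cannot reach.

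**Figure D2:**
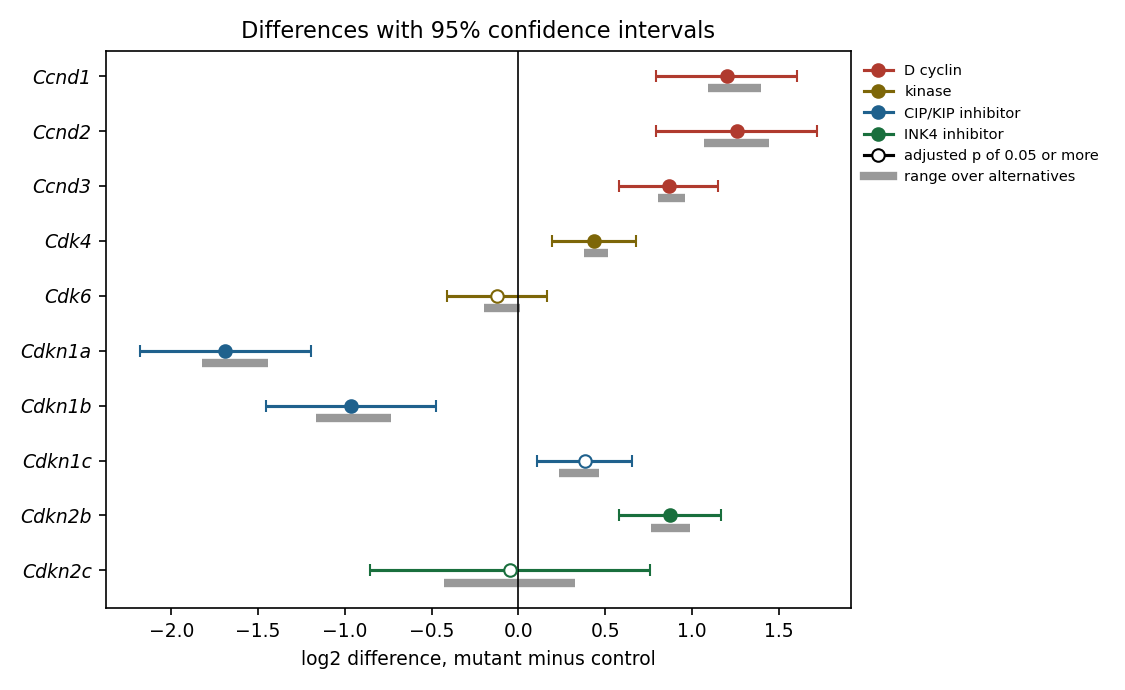
Log2 difference, mutant minus control (horizontal axis), of the 10 genes with 95% confidence intervals from limma, coloured by role, filled where the adjusted p was under 0.05. Grey bars give the range over the 19 alternative analyses, in which the 3 D cyclins, Cdk4 and Cdkn2b kept positive differences and Cdkn1a and Cdkn1b negative ones.

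Cdk4, the kinase partner of the D cyclins, stood at 12.51, 12.31 and 12.58 in the mutants and at 12.12, 11.96 and 12.01 in the controls. The groups did not overlap, but they lay only 0.19 apart. The mean difference was 0.44 (SE 0.10, limma adjusted p = 0.0415), with a 95% confidence interval of 0.20 to 0.68 and an adjusted p close to the threshold. Of 19 alternative analyses 11 kept Cdk4 past it and all 19 kept it higher in the mutants. In limma the highest adjusted p were 0.174 without mutant 1 and 0.170 without mutant 3, and with sex as a covariate it was 0.0659.

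Cdk6, the other D cyclin kinase, stood at 10.04, 9.68 and 9.95 in the mutants and at 9.99, 9.90 and 10.15 in the controls. The groups overlapped. The log2 difference was −0.12, with a 95% confidence interval of −0.41 to 0.17 (limma adjusted p = 0.623). The interval holds falls of up to 1.33-fold and smaller rises. The difference between the responses of Cdk4 and Cdk6 was 0.56, and the per-array difference was larger in all 3 mutants than in any control (exact p = 0.1, the smallest possible, adjusted over the 8 pairs 0.16).

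Cdkn1a, which encodes the inhibitor p21 and is a classic target gene of p53, had the largest change of the 10 genes. It stood at 10.67, 10.11 and 10.48 in the mutants and at 12.00, 11.84 and 12.48 in the controls. The highest mutant lay 1.17 below the lowest control. The log2 difference was −1.69 (SE 0.21, limma adjusted p = 0.00398), with a 95% confidence interval of −2.18 to −1.20, and it ranked 224 of the 20239 genes by size. It stayed past the threshold in all 19 alternatives, between −1.82 and −1.44.

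Cdkn1b, which encodes p27, an inhibitor that accumulates in many cells as they stop dividing, stood at 8.95, 8.87 and 8.90 in the mutants and at 9.46, 9.81 and 10.33 in the controls. The mutants were nearly alike (SD 0.039, n = 3), whereas the controls spread over almost a full log2 unit (SD 0.44, n = 3). On average the mutants lay lower by a log2 difference of −0.96 (SE 0.21, limma adjusted p = 0.0315), with a 95% confidence interval of −1.45 to −0.47. The controls were in the reverse order of their adipocyte levels. With that level as a covariate the difference was −1.04 (limma adjusted p = 0.00188). This order was not particular to fat either. The Schwann cell and myelin marker means of the controls ran in the same order as Cdkn1b. Their macrophage, endothelial and fibroblast marker means ran in the reverse order. It was not tested which of these levels goes with Cdkn1b. In limma the adjusted p was 0.107 without mutant 1, 0.0784 without mutant 2, 0.117 without mutant 3, 0.0784 without control 2 and 0.136 without both muscle-rich nerves.

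Cdkn1c, which encodes p57, an imprinted inhibitor known to hold back Schwann cell differentiation, did not follow its relatives. It stood at 9.04, 9.33 and 9.26 in the mutants and at 8.77, 8.99 and 8.72 in the controls. All mutants lay above all controls, by as little as 0.05, where 16.3% of all genes had their mutants above their controls. The log2 difference was 0.38 (SE 0.12, 95% confidence interval 0.11 to 0.66), and it did not pass over all genes (limma adjusted p = 0.0995) or in any of the 19 alternatives. The response of Cdkn1a lay 2.07 below that of Cdkn1c, and the response of Cdkn1b 1.35 below it. For each of these pairs the exact p was 0.1, and adjusted over the 8 pairs 0.16. Cdkn1a fell by 0.72 more than Cdkn1b (exact p = 0.1, adjusted 0.16).

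Cdkn2b, which encodes the INK4 inhibitor p15 and is known for its induction by TGF-beta, stood at 8.89, 8.65 and 9.11 in the mutants and at 8.05, 7.97 and 8.01 in the controls. The controls were nearly alike (SD 0.040, n = 3), and every mutant lay at least 0.61 above them. On average the mutants were higher by 0.87 (SE 0.12, limma adjusted p = 0.00666), with a 95% confidence interval of 0.58 to 1.17, and the difference passed in all 19 alternatives. Cdkn2b was thus an inhibitor that rose together with the D cyclins that its protein opposes. Its neighbour Cdkn2a, which encodes a further INK4 inhibitor and the p53 activator ARF, stood at 0.27 (SE 0.086, limma adjusted p = 0.107).

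Cdkn2c, which encodes the INK4 inhibitor p18, stood at 9.21, 9.27 and 9.24 in the mutants and at 10.05, 9.29 and 8.54 in the controls. All 3 mutants lay inside the range of the controls. The log2 difference was −0.05 (SE 0.34, limma adjusted p = 0.950), with a 95% confidence interval of −0.86 to 0.76. The interval holds rises as well as falls, the falls of up to 1.81-fold. The controls were in the same order as their adipocyte levels of 12.27, 11.44 and 10.17. Over the 6 arrays the highest and lowest Cdkn2c values belonged to the nerves with the highest and lowest adipocyte levels. This order was not particular to fat. Controls 1 to 3 also ran 9.26, 9.04 and 8.89 for the mean of the macrophage markers and 10.52, 10.37 and 10.10 for endothelial markers. For fibroblast markers they ran 11.75, 11.66 and 11.49. Which of these levels goes with Cdkn2c was not tested. The mutants stayed between 9.21 and 9.27 while their adipocyte levels ran from 10.71 to 11.45. The small difference turned with the setting: it was 0.08 with the adipocyte level as a covariate (limma adjusted p = 0.787), 0.14 with sex as a covariate (0.866), 0.33 without control 1 (0.501) and −0.43 without control 3 (0.313).

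**Figure D3:**
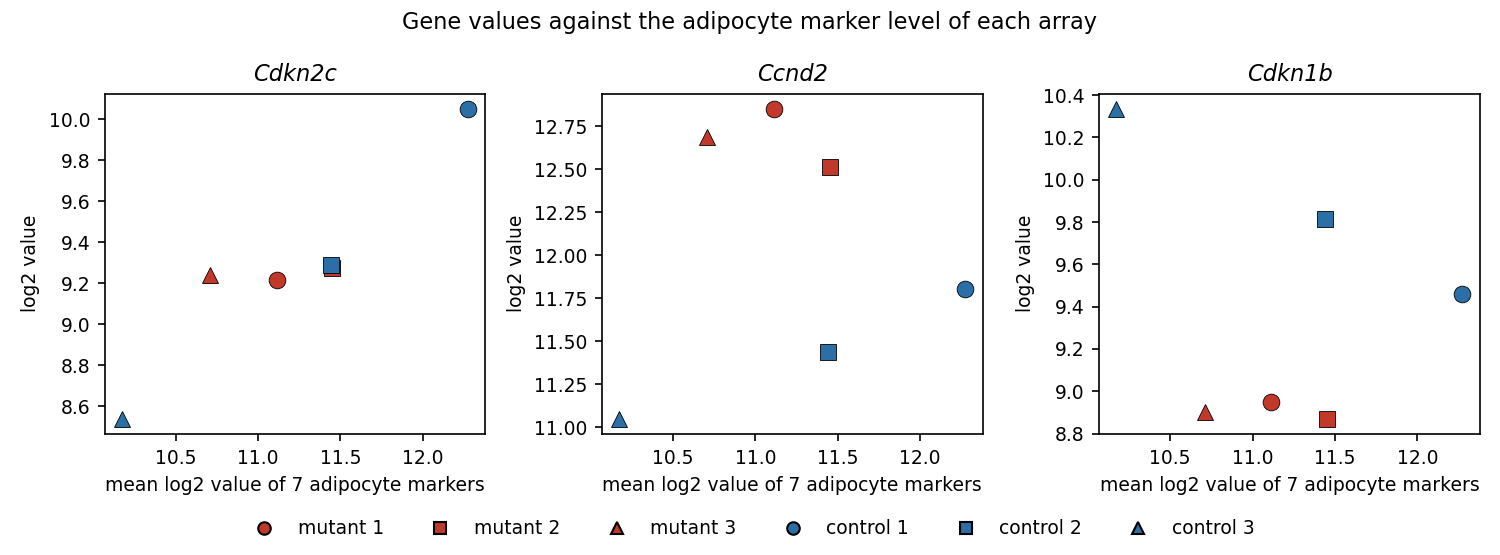
Log2 values of Cdkn2c, Ccnd2 and Cdkn1b (vertical axes) against the mean log2 value of 7 adipocyte markers on the same array (horizontal axes), with mutants in red, controls in blue and the marker shape giving the replicate number. In the controls Cdkn2c and Ccnd2 are highest in control 1 (adipocyte level 12.27) and lowest in control 3 (10.17), and Cdkn1b runs the other way. The macrophage, endothelial and fibroblast marker means of the controls share the adipocyte order. So do their means of the replication and mitosis genes and of the list of cyclins E, A and B. Their Schwann cell and myelin marker means run the opposite way. For Cdkn2c the points of mutant 2 and control 2 nearly coincide.

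The genes whose 6 values, centred on each gene's mean, came closest to those of a member were named for the 7 members that passed. The measure was the root mean square difference in log2 units over the 6 arrays. Nearest to Ccnd1 were Pcbd1 (0.058), the collagen gene Col8a1 (0.061) and the adaptor gene Shc3 (0.062). Nearest to Ccnd2 were H2-Q9, Cdca7l and the adhesion gene Alcam (0.078 to 0.082), and nearest to Ccnd3 were the elongase gene Elovl5, Frmd4b and the tubulin gene Tubb6 (0.044 to 0.047). Nearest to Cdk4 were Rcn3, the translocon gene Sec61a1 and the basement membrane gene Nid1 (0.024 to 0.029). Of these, Rcn3 and Nid1 did not pass themselves (limma adjusted p = 0.0524 and 0.0642). Nearest to Cdkn1a were the potassium channel gene Kcna1 (0.055), the kinesin gene Kif1a (0.064) and Gpr137b (0.067). Nearest to Cdkn1b were Csgalnact1, Dclk3 and Ankub1 (0.072 to 0.084), and nearest to Cdkn2b were Farp1, Reps2 and Rab3il1 (0.038 to 0.039). None of these 21 genes was another member.

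Next to the 10 genes on the chromosome lay 19 other measured genes, the nearest on each side. Of these 1 passed, against 9.62% of all genes: Gpr19, a receptor gene beside Cdkn1b, fell by 0.42 (SE 0.10, limma adjusted p = 0.0461). The measured neighbours of Ccnd1 (LTO1 at −0.03 and Tpcn2 at 0.12), of Ccnd2 (Tigar at −0.06 and Parp11 at 0.02) and of Cdkn1a (Srsf3 at 0.49 and Rab44 at 0.04) did not pass.

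The rest of the cell cycle pathway was read from 7 lists with 95 genes, of which 90 were measured, and 5 of them rose and 2 fell (8 and 3 with the replicate number as a block). These 7 genes are 7.78% of the lists, against 9.62% of all genes, but the order of the shares depends on the setting. With the block the share was 12.2% in the lists and 10.1% over all genes, and the lists lay above all genes in 11 of the 19 alternatives and below in 8. At an unadjusted p under 0.05 there were 43 of the 90 genes, against 22.4% of all genes. The median log2 difference over the 90 genes was 0.22, and 69 of them had positive differences, against 9291 of all 20239 genes. The list of other INK4 inhibitors and the CDK-activating kinase had no gene past the limma test among 5 measured (1 at an unadjusted p under 0.05, against 22.4% of all genes), with Cdkn2a having the smallest p. Of the pocket proteins, E2F and DP factors none of 13 passed (4 at an unadjusted p under 0.05, against the same 22.4%) and the median was 0.05. The gene with the smallest p was E2f5, of the E2F factors that act with pocket proteins to repress genes, at 0.58 (SE 0.15, limma adjusted p = 0.0597, and 0.0228 with the replicate number as a block). Rb1, the gene of the retinoblastoma protein, stood at −0.37 (SE 0.12, limma adjusted p = 0.116) and was named after its value was seen.

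Of the cyclins E, A and B with their kinases and phosphatases, 2 of 10 rose and none fell, against 5.74% and 3.89% of all genes. At an unadjusted p under 0.05 there were 7 (22.4% of all genes), and all 10 had positive differences, with a median of 0.52. The number that rose was 6 with sex as a covariate, 7 with array weights, and 1 without mutant 1, without mutant 3 or without both muscle-rich nerves. Wee1, the kinase that holds CDK1 inactive before mitosis, stood at 10.29, 10.06 and 10.45 in the mutants and at 9.04, 8.72 and 8.86 in the controls. Its log2 difference was 1.39 (SE 0.13, limma adjusted p = 0.00156). Cdc25b, the phosphatase that works against Wee1 on CDK1, rose by 0.60 (SE 0.11, limma adjusted p = 0.0176), so a brake and an accelerator of mitotic entry were both higher. The rise of Cdc25b did not pass without mutant 1 (limma adjusted p = 0.0890), without mutant 3 (0.0794) or without both muscle-rich nerves (0.0784).

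In the list of replication and mitosis genes none of 20 passed in limma, with 13 at an unadjusted p under 0.05 (22.4% of all genes), and 19 of 20 had positive differences with a median of 0.45. Mcm4, a subunit of the replicative helicase, had the smallest p, at 0.45 (SE 0.11, limma adjusted p = 0.0516). Its values were 8.55, 8.33 and 8.69 for the mutants and 8.15, 8.02 and 8.04 for the controls, with no overlap. The count past the test was 14 with array weights, 6 without mutant 2, 3 without control 1, 6 with sex as a covariate and 1 with the replicate number as a block.

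**Figure D4:**
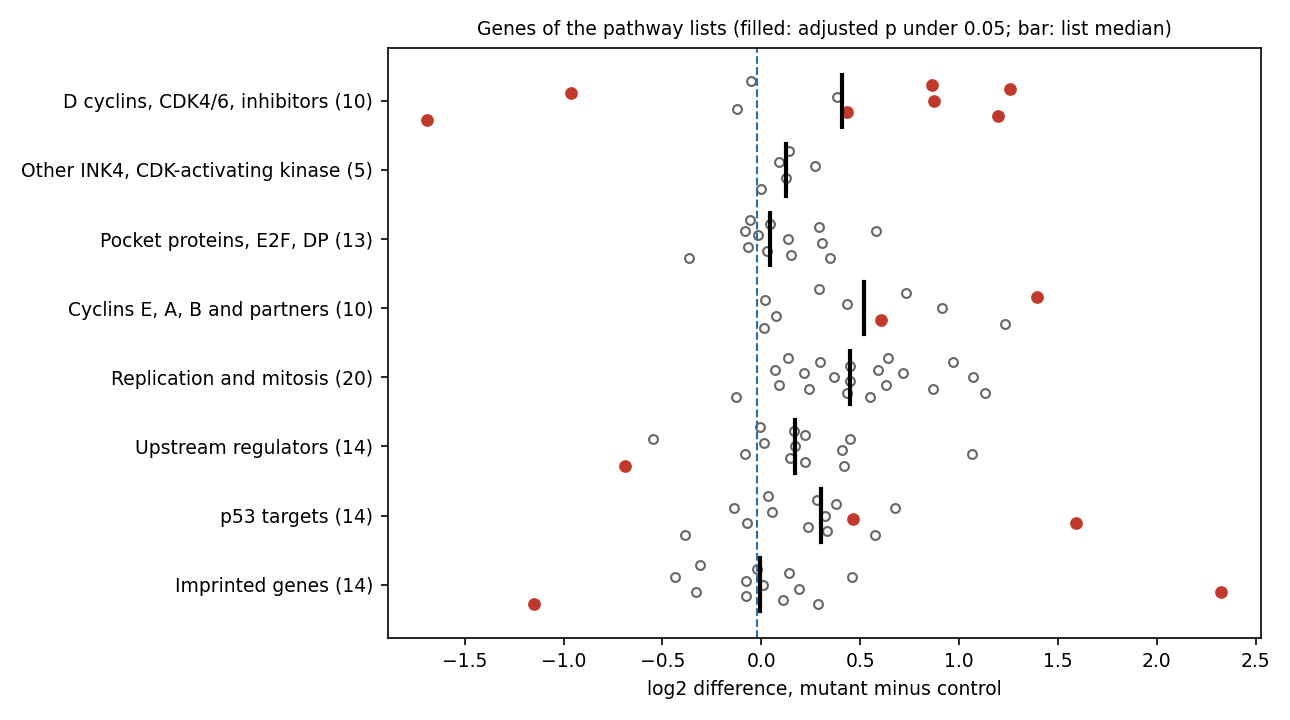
Log2 difference, mutant minus control (horizontal axis), of the 10 genes described here and of the 7 further lists (rows, with the number of measured genes), filled where the limma adjusted p was under 0.05, with a black bar at each list's median and a dashed line at the median of all genes (−0.02). In the replication and mitosis row 19 of 20 points lie above 0 and none is filled.

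Among 14 upstream regulators none rose and 1 fell (1 and 2 with the block), where without the block 5.74% of all genes rose and 3.89% fell. The gene that fell was Foxo4, a forkhead factor of a family that activates Cdkn1b. It stood at 8.34, 8.64 and 8.39 in the mutants and at 8.84, 9.23 and 9.37 in the controls, a log2 difference of −0.69 (SE 0.16, limma adjusted p = 0.0400). The call was lost without mutant 1 (limma adjusted p = 0.159), mutant 3 (0.155), control 2 (0.116) or control 3 (0.0943) and without both muscle-rich nerves (0.104). Foxo3 and Foxo1, of the same family, stood at differences of 0.41 (limma adjusted p = 0.221) and 0.02 (0.951). Myc, which encodes a transcription factor that promotes growth, stood at 10.68, 9.81 and 9.94 in the mutants and at 9.32, 9.29 and 8.62 in the controls. Its difference of 1.07 (SE 0.28, limma adjusted p = 0.0620) did not pass, except in 4 alternatives, among them the replicate number as a block (limma adjusted p = 0.0172). Its relative Mycn lay the other way, at −0.55 (SE 0.17, limma adjusted p = 0.0996, and 0.0489 with the block). Foxo1, Foxo3, Myc and Mycn were named after their values were seen.

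Cdkn1a is a p53 target. None of the other 14 targets measured fell and 2 rose, where 3.89% of all genes fell and 5.74% rose. With so small a share of all genes lower, no fall among 14 says little. At an unadjusted p under 0.05 there were 7 of the 14, against 22.4% of all genes, and the median was 0.30. Plk2, a polo-like kinase, stood at 11.12, 10.72 and 10.88 in the mutants and at 9.04, 9.29 and 9.62 in the controls, a log2 difference of 1.59 (SE 0.17, limma adjusted p = 0.00244). Zmat3 rose by 0.46 (SE 0.11, limma adjusted p = 0.0463), a call lost in 11 of 19 alternatives, the block among them (0.0525), with limma adjusted p of up to 0.185, the value without mutant 1. Mdm2, the p53 antagonist that p53 itself induces, stood at 0.04 (SE 0.088, limma adjusted p = 0.854) and was named after its value was seen.

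Of 14 imprinted genes, neighbours of Cdkn1c or genes of the same growth network, 1 rose and 1 fell, and the median was −0.01. Over all genes 5.74% rose and 3.89% fell, so these counts were close to the shares of all genes. Mest stood at 12.91, 12.53 and 13.14 in the mutants and at 10.84, 10.50 and 10.26 in the controls, a log2 difference of 2.33 (SE 0.20, limma adjusted p = 0.00111). Igf2, the insulin-like growth factor, fell by 1.15 (SE 0.23, limma adjusted p = 0.0236), a call lost without mutant 1 (limma adjusted p = 0.0746), mutant 3 (0.103), control 1 (0.0696) or control 2 (0.0762) and with sex as a covariate (0.0588). Kcnq1 and Slc22a18, the measured neighbours of Cdkn1c, stood at −0.02 and 0.29 and did not pass.

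Markers of other cells of the nerve were read beside these results. Of 8 macrophage markers none passed in limma, with 4 at an unadjusted p under 0.05 (22.4% of all genes), and the median was 0.33. Of 6 endothelial markers 1 fell, and the median was 0.00. Of 8 fibroblast markers 2 rose (median 0.26), and of 6 perineurial markers 4 rose (median 0.92). The mean log2 value of the perineurial markers was 11.34 to 11.55 in the mutants and 10.32 to 10.67 in the controls. Of 5 myelin markers 4 fell and none rose. Beside these counts, 5.74% of all genes rose and 3.89% fell. The part of these cells in the changes of the D cyclins and inhibitors was not tested.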

How the data were processed

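The deposited file, made by the authors, holds log2 values of gene-level probe sets, 1 for each array. The log base was read from the values. Per the submitters' processing notes limma was used, in an unstated version and role. Background correction, normalization and genome build: not given in the sources used here. Of 21225 probe sets, 20239 were named by 1 symbol through the platform annotation and Entrez numbers (RefSeq, GRCm38.p6), 0 by several, and 986 were left unnamed.

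For all named genes, mutant minus control was estimated without covariates by lmFit and eBayes of limma 3.58.1 (R 4.3.3), two-sided, with Benjamini-Hochberg adjustment over all of them and a threshold of 0.05. SE is the moderated standard error, and values are mean ± SD. The fit was tested on simulated data. Figures used matplotlib 3.10.9 in Python 3.11.15.

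The members, lists and tests were chosen with earlier results of these data known. Named genes were the members, Zeb2, up to 4 passing genes with the largest change in each pathway list, or the gene with the smallest p, and the 3 nearest profiles per passing member. S100b, Erbb3, the neighbours, the promoter motifs and genes said so in the text were added after seeing values. The neighbours were the nearest measured genes on either side. Cdkn2d, Ccnb1, Pcna, Trp53, Bax, Prx, Cfd and some other marker genes are not analysed here.

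Both groups carry the replicate numbers 1 to 3. Deviations from the group means correlated between same-numbered arrays at 0.360, 0.574 and 0.295, all over 0.1. These correlations do not establish pairing, because mutant 2 and control 2 were both muscle-rich. The muscle level was also alike in the other same-numbered nerves. It was 7.60 and 7.57 in mutant 1 and control 1, and 9.85 and 10.36 in mutant 3 and control 3. Same-numbered arrays were read as opposite in sex, and the labels do not say what the numbers share. The main fit therefore had no block, and a fit blocked on that number was among the alternatives. The labels call the samples biological replicates.

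The 19 alternatives left out the lowest 25% or 50% of genes, centred arrays on their medians, or added 16 to linear values. Another applied quantile normalization to the deposited values. Others used a trended robust prior, array weights, the block or every probe set. The muscle level, adipocyte level or sex (from Xist and 3 Y-linked genes) each served as a covariate. The rest left out each array in turn or both muscle-rich arrays.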

Additional observations from a re-analysis of the deposited data

How the results depend on the processing

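Of the 10 genes, 5 rose and 2 fell. Without both muscle-rich nerves 3 rose and 1 fell, Ccnd2, Cdk4 and Cdkn1b no longer passing. With 1 array left out at a time, 4 to 5 rose and 1 to 2 fell. Ccnd1, Ccnd3, Cdkn1a and Cdkn2b passed in all 19 alternatives, Ccnd2 in 18, Cdkn1b in 14 and Cdk4 in 11. With the replicate number as a block 5 of the 10 genes rose and 2 fell, and the differences were the same, 1.20 for Ccnd1 and −1.69 for Cdkn1a. The block changed no call among the 10 genes. Cdk4 is the gene lost with arrays centred on their medians (limma adjusted p = 0.0773), which moved the median of all genes to −0.07. In the 7 pathway lists, 5 genes rose and 2 fell. The number that rose was 9 and 11 without the lowest 25% and 50% of genes, 8 with a trended robust prior or with the replicate block, 34 with array weights, 11 with the adipocyte level and 15 with sex as a covariate, and 3 to 13 with 1 array left out. The number that fell was 4 with array weights or the adipocyte level, 1 with sex as a covariate or without both muscle-rich nerves, and 0 to 2 with 1 array left out. The cause was not tested. The block changed the calls of E2f5, Rrm2, Myc and Eda2r (higher), Mycn (lower) and Zmat3 (lost) in these lists. Detection calls were not used here, so dim probe sets were not told apart from background.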
